A study of Mus musculus with 6 samples.

Results

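The platelet-derived growth factor (PDGF) ligands, their receptors and the related receptor Kit with its ligand were followed in embryonic mouse cardiomyocytes with and without Yap, the transcriptional coactivator held in check by the Hippo kinases. The 8 genes, Pdgfa, Pdgfb, Pdgfc, Pdgfd, Pdgfra, Pdgfrb, Kit and Kitl, were chosen by gene symbol from the 19938 genes with an annotated probe set, and each had a single probe set. The family was put together with the Yap KO against Yap HET differences of the receptor genes already known. The differences of its members are therefore descriptions and carry no p-value here. A family score or a p adjusted over the 8 genes was not computed for the same reason.

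RNA came from hearts at E12.5, and each of 6 Affymetrix arrays held cells of 1 sample, 3 labelled Yap HET and 3 labelled Yap KO and described as biological replicates. All embryos came from matings of TNTCre, Yap flox and R26 mTmG mice, so the controls also carry Cre, the reporter and a floxed allele, and are heterozygous for Yap rather than wild type. TNTCre is driven by a cardiac troponin T promoter, and the reporter turns green wherever Cre has acted. Green cells were collected by flow cytometry from hearts digested individually, but the labels leave unsaid whether RNA from several hearts, or from littermates, shared an array. Array medians lay between 128 and 140, and log2 values correlated at 0.992 to 0.996 between arrays of a group and at 0.984 to 0.991 across groups, over genes, which are not independent replicates. Yap1 itself read 886, 927 and 871 in Yap HET cells against 103, 84.7 and 86.6 after deletion, the direction the labels give. The position of its probe set relative to the floxed exons was not checked here. The 12 cardiomyocyte markers, from Tnnt2 to Ryr2, were all above the filter level of 85.7, and their summed intensity was 75403 to 76592 in Yap HET and 74846 to 77212 in Yap KO cells.

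PDGFs are secreted dimers that bring receptor tyrosine kinases together at the cell surface. PDGF-A and PDGF-C act mainly through PDGF receptor alpha, PDGF-B binds either receptor, and PDGF-D acts mainly through receptor beta, while Kit answers to stem cell factor, the product of Kitl. Activated receptors recruit PI3K, phospholipase C gamma, SHP2 and the Ras pathway. In the developing heart Pdgfra marks early cardiac progenitors and later the mesenchyme of cushions and epicardium, Pdgfrb marks mural cells and epicardium-derived cells, and Kit marks melanoblasts, mast cells, blood progenitors and some endothelial and immature cardiac cells.

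Because Pdgfra and Kit lie next to each other and were higher together, the 250 bases before their annotated starts are printed, with those of Pdgfc, the ligand gene whose groups did not overlap. They are RefSeq promoter windows on build GRCm38.p6, plus strand, at chr5:75152001-75152250 for Pdgfra, chr5:75574737-75574986 for Kit and chr3:81036166-81036415 for Pdgfc. Capitals mark GGAATG, the core that TEAD factors, the DNA-binding partners of Yap, are known to recognise.
Pdgfra: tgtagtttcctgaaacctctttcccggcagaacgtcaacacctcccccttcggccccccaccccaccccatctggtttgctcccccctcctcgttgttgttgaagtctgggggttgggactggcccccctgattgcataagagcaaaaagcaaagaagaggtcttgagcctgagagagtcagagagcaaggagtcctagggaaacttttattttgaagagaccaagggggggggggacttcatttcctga
Kit: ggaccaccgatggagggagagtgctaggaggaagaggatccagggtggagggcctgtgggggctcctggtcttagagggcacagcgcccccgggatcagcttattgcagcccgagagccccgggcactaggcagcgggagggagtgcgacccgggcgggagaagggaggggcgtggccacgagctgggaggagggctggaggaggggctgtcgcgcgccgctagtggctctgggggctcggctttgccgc
Pdgfc: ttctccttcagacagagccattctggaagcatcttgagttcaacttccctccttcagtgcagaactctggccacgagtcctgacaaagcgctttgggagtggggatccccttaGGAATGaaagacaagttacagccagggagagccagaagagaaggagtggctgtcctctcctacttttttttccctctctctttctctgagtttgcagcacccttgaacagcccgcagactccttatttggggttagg

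Of the 8 windows that the table held for 6 of the genes (Pdgfa and Kit have 2 each), only the Pdgfc window had GGAATG on either strand, starting 137 bases before the annotated start. Among all 32851 promoter windows cut to the same 250 bases, 12.6% held it. CATGTG, an E-box that MITF, a regulator of Kit in melanocytes, can bind, was in 0 of the 8 windows and in 12.25% of all windows. The GC content of the printed windows ran from 50.8% for Pdgfc and 54.4% for Pdgfra to 70.8% for Kit. A match is only a run of letters, and its absence from so short a window says nothing about the factors.

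The 3 receptor genes all read higher in Yap KO cells, and the ligand genes differed less and in either direction. Pdgfra stood 1.97 times, Pdgfrb 1.66 times and Kit 1.43 times as high as in Yap HET cells, whereas Pdgfa was level and Pdgfb, Pdgfc, Pdgfd and Kitl differed by 1.23-fold or less. Even so, 95.9% of the genes tested had a lower difference than Kitl and 92.1% a lower one than Pdgfc. Of the 8 genes, 7 were bright enough to be tested, the exception being Pdgfb. Of these, 3 were past the limma threshold (adjusted p under 0.05 over 13632 genes) on the higher side, where 5.16% of all genes tested lay, and 0 on the lower side, where 4.76% lay. Since the family was proposed from this contrast, nothing is read from that count. Arrays of Yap KO lay wholly above those of Yap HET for 4 of the 7, against 16.7% of all genes tested, and wholly below for 0, against 17.2%. The median log2 difference of the 7 was 0.30, beside -0.02 over all genes tested.

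Pdgfra, the receptor for PDGF-A and PDGF-C, read 315, 397 and 363 in Yap HET cells, against 660, 680 and 777 in Yap KO cells. The groups were far apart, with the lowest Yap KO array 66.2% above the highest Yap HET array. The means were 358 ± 40.9 (SD, n = 3) and 706 ± 62.5 (n = 3), a log2 difference of 0.98 ± 0.10 (SE), and 99.9% of the genes tested had a lower difference. Each SE given here is limma's moderated one, in which a gene's variance is drawn toward that of all genes in the fit. For a variable gene it is smaller than the gene's own arrays alone would give, and for a steady gene larger. Its difference stayed between 0.89 and 1.06 whichever array was left out.

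Pdgfrb, the receptor for PDGF-B and PDGF-D, read 275, 301 and 260 in Yap HET and 424, 458 and 512 in Yap KO cells. Again the groups were separate, the lowest Yap KO array being 40.8% above the highest Yap HET array. The means of 279 ± 20.7 and 464 ± 44.3 gave a log2 difference of 0.73 ± 0.08 (SE), and between 0.66 and 0.80 with an array left out.

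Kit, the stem cell factor receptor, was dimmer, at 138, 156 and 155 in Yap HET and 234, 185 and 228 in Yap KO cells. The groups did not overlap, but Yap KO replicate 2 was only 18.1% above the highest Yap HET array. The means were 150 ± 10.1 and 216 ± 27.2, a log2 difference of 0.52 ± 0.10 (SE). Kit fell short of the limma threshold without Yap HET replicate 1, when its difference was 0.46, and without Yap KO replicate 3, when it was 0.47. It also fell short when dim genes were kept in the test.

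**Figure D1:**
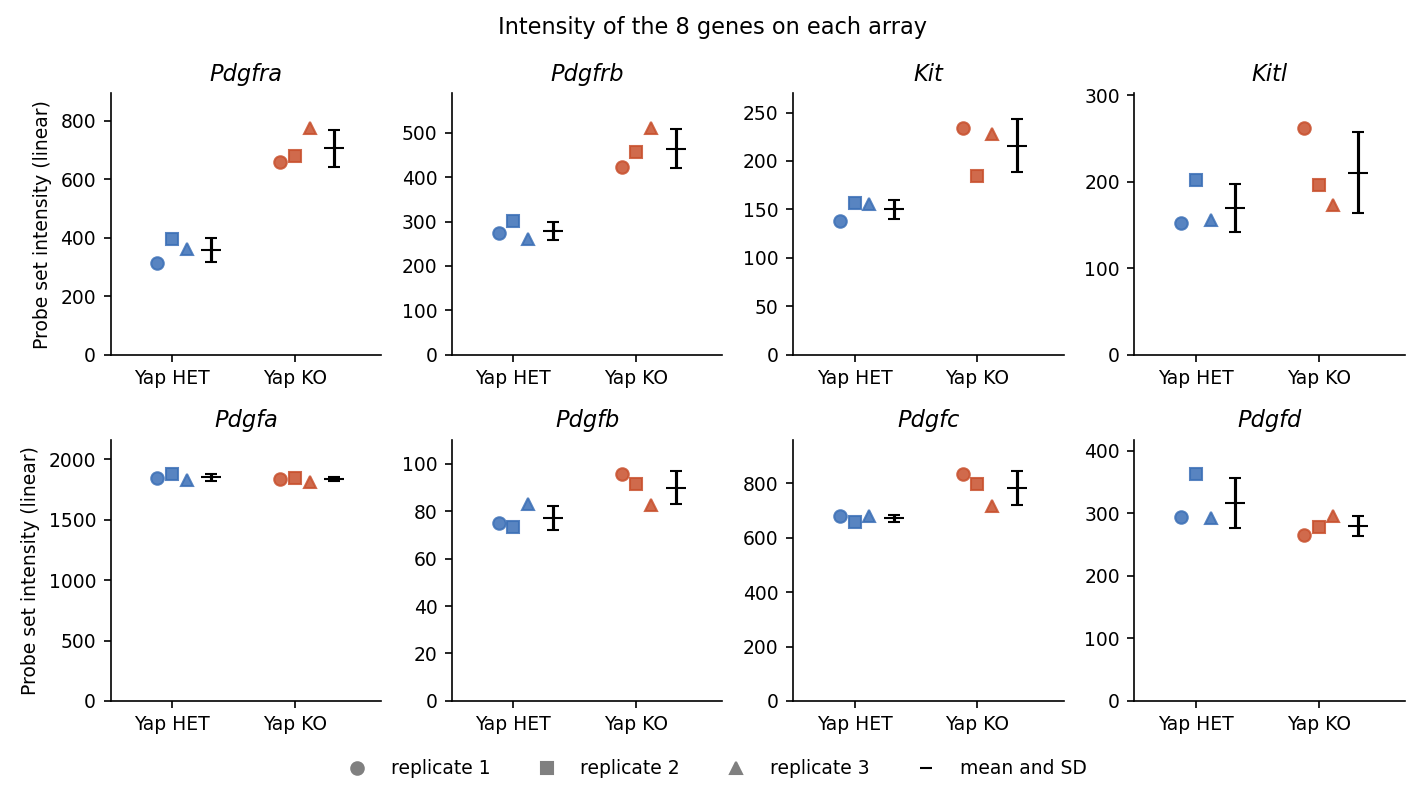
Probe set intensity (linear, axis from 0) of the 8 genes on each array, with symbols for replicates and black bars for the group mean and SD of 3 arrays. Pdgfra, Pdgfrb, Kit and Pdgfc have Yap KO arrays that all lie above the Yap HET arrays, and the other 4 overlap. The probe sets of different genes are not on a shared scale.

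Among the ligand genes, Pdgfa, whose product serves the alpha receptor, was steady at 1846, 1881 and 1825 in Yap HET and 1840, 1845 and 1815 in Yap KO cells. The groups overlapped and the log2 difference was -0.01 ± 0.05 (SE). Its pooled log2 SD within groups was 0.018, a spread that only 0.917% of the genes tested stayed under.

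Pdgfc, the other ligand of the alpha receptor, read 678, 657 and 680 in Yap HET and 835, 799 and 715 in Yap KO cells. All Yap KO arrays were higher, though Yap KO replicate 3 was only 5.20% above the highest Yap HET array. The log2 difference was 0.22 ± 0.07 (SE), not past the limma threshold with all arrays at the filter used here, and 0.28 and past it without Yap KO replicate 3. With all arrays Pdgfc was also past the threshold under a filter at the 60th percentile and under a trended robust prior.

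Pdgfb, which encodes the ligand of either receptor and comes mainly from endothelium, stood close to the filter level, at 75.1, 73.5 and 82.8 in Yap HET and 95.8, 91.6 and 82.4 in Yap KO cells. The lowest Yap KO array fell inside the Yap HET range. Its mean over all arrays was under the filter level, so it was not tested. Whether it stood above background was not assessed. The log2 difference was 0.22 ± 0.08, with the SE from the fit that kept dim genes.

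Pdgfd, the ligand gene of the beta receptor, read 294, 363 and 293 in Yap HET and 265, 278 and 296 in Yap KO cells. Its Yap KO mean was the lower, yet the groups overlapped and Yap HET replicate 2 stood alone as the high array. The log2 difference of -0.17 ± 0.09 (SE) became -0.07 without that array.

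Kitl, which encodes stem cell factor, read 152, 202 and 156 in Yap HET and 263, 196 and 173 in Yap KO cells. Yap HET replicate 2 was above 2 of the Yap KO arrays, and the log2 difference of 0.30 ± 0.16 (SE) ranged from 0.13 without Yap KO replicate 1 to 0.43 without Yap HET replicate 2. Kitl was the most variable of the 8, with a pooled log2 SD of 0.27, larger than for 98.9% of the genes tested. Its moderated SE is therefore narrower than its own arrays alone would give. Markers of red cells, which are known for their globins, also peaked on Yap KO replicate 1, where 5 genes summed to 2620 against 461 to 1043 on the other Yap KO arrays and 337 to 723 on the Yap HET arrays. Their part in the Kitl value was not tested.

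**Figure D2:**
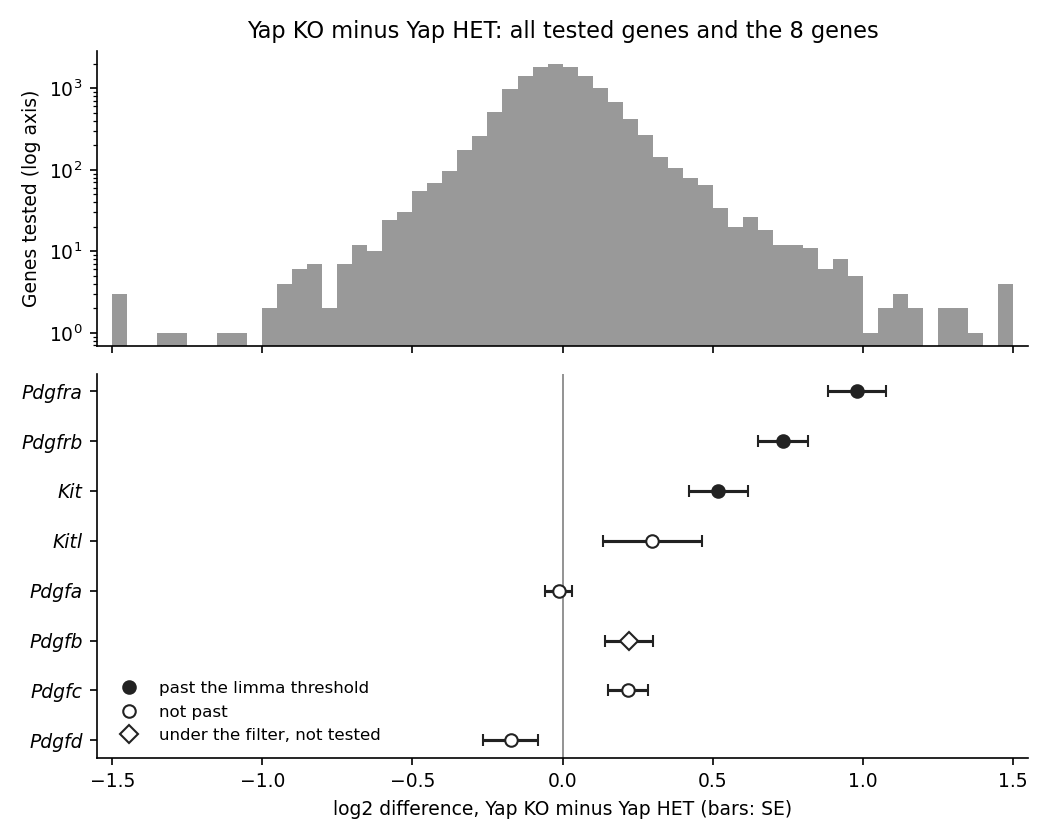
Upper panel, number of genes tested (log axis) by log2 difference, Yap KO minus Yap HET, with values beyond 1.5 in either direction placed in the end bins. Lower panel, the difference of each of the 8 genes with its SE: the 3 receptor genes lie at 0.98, 0.73 and 0.52, far in the right tail, and Pdgfa lies at -0.01.

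Within the groups, whose spread enters the SE and the limma test but not the log2 difference, some genes shared their high and low arrays. Pdgfra and Pdgfrb were both highest on Yap KO replicate 3, at 0.14 above the group mean on the log2 scale, and lowest on Yap KO replicate 1, at -0.09 and -0.13. Pdgfb, Pdgfc and Kitl had the opposite pattern among the Yap KO arrays, with replicate 1 at 0.09, 0.10 and 0.34 and replicate 3 at -0.12, -0.13 and -0.26. Kit went with neither, its low array being Yap KO replicate 2 at -0.22. Among the Yap HET arrays, replicate 2 was above the group mean for 6 of the 8 genes and replicate 1 below it for 7. With 3 arrays in a group these are values and not a test.

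**Figure D3:**
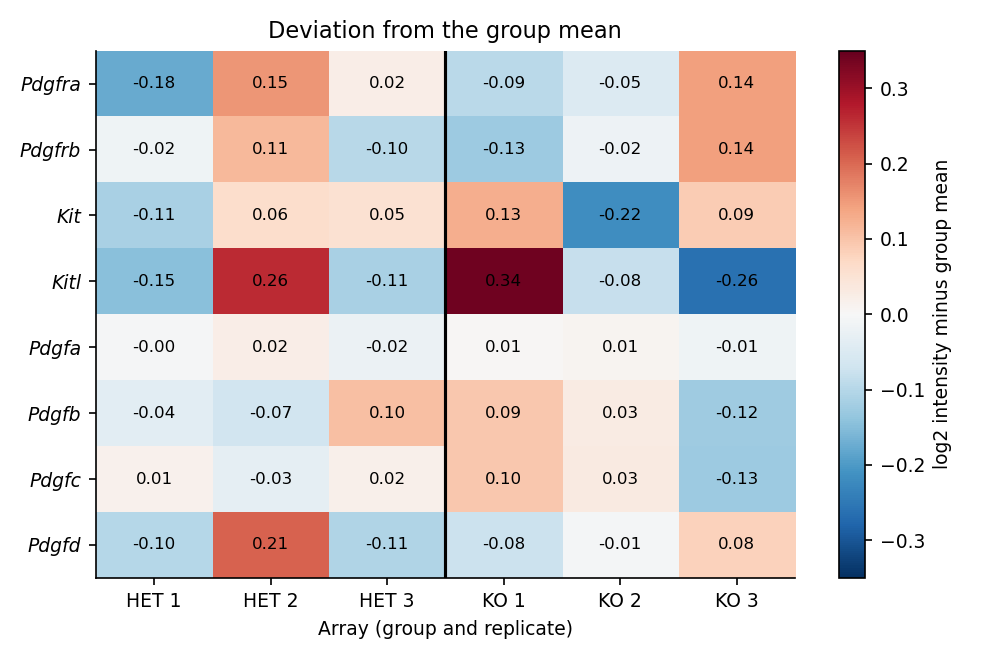
Log2 intensity of each gene on each array minus the mean of its group, in colour and as a number. The array of largest deviation is Yap KO replicate 1 for Kitl, at 0.34, and Pdgfa stays within 0.02 of its group means.

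Kdr, the VEGF receptor gene that follows Kit in the annotation, was the member of a wider receptor list that rose. It read 225, 239 and 241 in Yap HET and 400, 387 and 411 in Yap KO cells, with no overlap, a log2 change of 0.76 ± 0.05 (limma adjusted p = 5.04e-04). Pdgfra, Kit and Kdr are consecutive protein-coding genes on mouse chromosome 5, and Gsx2, a homeobox gene on the other side of Pdgfra, had a log2 difference of -0.15 ± 0.08 (limma adjusted p = 0.26). The list held 6 relatives of the PDGF receptors, of which 4 were tested, 1 rose and 0 fell, and its median was 0.07. Csf1r, the macrophage growth factor receptor gene that follows Pdgfrb in the annotation, had a difference of -0.21 ± 0.07 (limma adjusted p = 0.10) and passed on the lower side if Yap HET replicate 2 was dropped. Pdgfrl, a receptor-like gene, stood at 0.20 ± 0.10 (limma adjusted p = 0.25), and Flt3 and Flt4 were under the filter level.

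Ligands of these related receptors did not pass the test as run here. Of 8 genes, 0 rose and 0 fell over all genes with limma, with 1 gene each way at an unadjusted p under 0.05, and the median was 0.05. The share of all genes tested at that unadjusted level was not computed, so nothing is read from that count. Pgf, which encodes placental growth factor, had a log2 difference of 0.36 ± 0.10 (limma adjusted p = 0.063), and Vegfb -0.18 ± 0.05 (limma adjusted p = 0.069). Without Yap HET replicate 2, Pgf was past the threshold. With all arrays, 1 ligand gene rose and 1 fell under a filter at the 60th percentile, and also under quantile normalization, cyclic loess and a trended robust prior.

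Genes that process or bind the PDGFs and stem cell factor included 3 that rose. Furin, a proprotein convertase that cleaves PDGF-A and PDGF-B precursors, went from 1880 ± 33.9 to 2274 ± 153 (log2 change 0.27 ± 0.06, limma adjusted p = 0.033). Plat, the plasminogen activator that activates PDGF-C, went from 229 ± 10.9 to 294 ± 14.4 (0.36 ± 0.06, adjusted p = 0.013), and Lrp1, an endocytic coreceptor of PDGF receptor beta, from 793 ± 44.3 to 999 ± 39.6 (0.33 ± 0.06, adjusted p = 0.016). The list counted 3 rises and 0 falls among 11 tested, with a median of 0.003. The convertase gene Pcsk5 had a difference of -0.29 ± 0.09 (limma adjusted p = 0.086) and the sheddase gene Adam10 0.13 ± 0.05 (adjusted p = 0.13). Leaving out Yap HET replicate 1, or else Yap KO replicate 2, left 0 of the 3 rises, and leaving out Yap HET replicate 3 left 1. Dropping Yap KO replicate 3 kept Furin and brought Pcsk5 past the threshold, and Furin passed in no other such fit.

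Downstream of the receptors, changes went both ways. Of 28 adaptor and effector genes with a value used here, 3 rose and 2 fell, with a median of 0.05. Pik3r3, a regulatory subunit of PI3K, rose from 737 ± 9.74 to 1040 ± 69.1 (log2 change 0.50 ± 0.06, limma adjusted p = 0.0042). The Src family kinase gene Fyn (0.26 ± 0.07, adjusted p = 0.049) and the MAP kinase kinase gene Map2k1 (0.25 ± 0.06, adjusted p = 0.046) rose too. Pik3cb, a PI3K catalytic subunit gene that the study's own title names, fell by 0.34 ± 0.05 (adjusted p = 0.0063) and Stat5a, a transcription factor gene used by Kit, by 0.21 ± 0.05 (adjusted p = 0.035). The docking gene Gab2 (0.23 ± 0.06, adjusted p = 0.055) and the adaptor gene Crkl (-0.13 ± 0.05, adjusted p = 0.12) did not pass. Pik3r3 and Pik3cb kept their calls whichever array was left out. Fyn and Map2k1 kept theirs only without Yap HET replicate 2, and Stat5a in no such fit, and Gab2 passed when that same array was dropped.

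Among 15 negative regulators tested, 1 rose and 1 fell, and the median was 0.02. Socs6, a suppressor that binds Kit, rose by 0.26 ± 0.05 (limma adjusted p = 0.024), and the receptor phosphatase gene Ptprj fell by 0.23 ± 0.05 (adjusted p = 0.031). Acp1 (0.18 ± 0.05, adjusted p = 0.067) and Sh2b3 (-0.15 ± 0.05, adjusted p = 0.092) did not pass. Socs6 and Ptprj were past the threshold without Yap HET replicate 2 and in no other fit that left out an array. Over the 5 lists together, 8 of 66 genes tested rose and 3 fell, where 5.16% of all genes tested rose and 4.76% fell, and nothing particular to the lists is read from these counts.

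**Figure D4:**
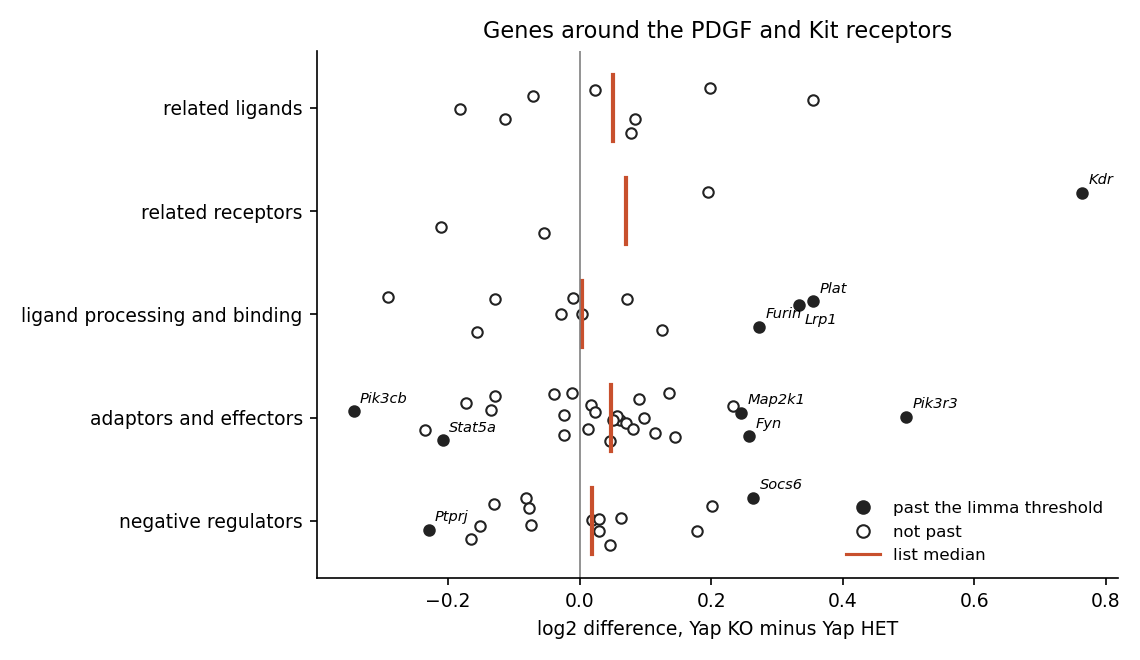
Log2 difference, Yap KO minus Yap HET, of each tested gene in the 5 lists around the receptors, with filled points past the limma threshold and an orange bar at the list median. The vertical spread within a list has no meaning. Kdr at 0.76 and Pik3r3 at 0.50 lie farthest to the right and Pik3cb at -0.34 farthest to the left.

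Since Pdgfra, Pdgfrb and Kit are also used to mark other cell types, the markers of those cells were set beside them. In RNA from sorted cells, more cells of a type and more RNA per cell cannot be told apart. Of 10 mesenchymal and fibroblast markers, all above the filter level, 2 rose and 0 fell, with a median of 0.28. Before adjustment (limma p under 0.05) 6 were higher and 0 lower. Many genes reach that level, since an unadjusted p of 0.0499 (Col3a1) went with a limma adjusted p of 0.18. The share over all genes tested was not computed, so nothing is read from the unadjusted counts of this and the other marker lists. Their summed intensity was 4959 to 5258 in Yap HET and 5786 to 7639 in Yap KO cells. Postn, with means of 1053 and 1739, was part of mean sums of 5100 and 6596. Differences of 8 markers were positive, but not those of Dcn (-0.004 ± 0.20, limma adjusted p = 0.99) and Thy1 (-0.18 ± 0.14, adjusted p = 0.44). Tcf21, a transcription factor of epicardial and fibroblast lineages, read 210, 276 and 171 in Yap HET and 431, 355 and 442 in Yap KO cells (log2 change 0.93 ± 0.17, limma adjusted p = 0.015), and the matrix gene Postn rose by 0.72 ± 0.13 (adjusted p = 0.014). Tcf21 lost its call when Yap HET replicate 1 or else Yap KO replicate 3 was dropped, and Postn when Yap KO replicate 2 was. The highest sum, like the highest Pdgfra and Pdgfrb values, was on Yap KO replicate 3. The part of such cells in the receptor values was not tested.

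Of 8 endocardial cushion markers, 3 rose, 0 fell and the median was 0.17, with 4 higher and 2 lower before adjustment. Their sums were 5903 to 6023 in Yap HET and 7209 to 7377 in Yap KO cells. Most of that sum is Vcan, the proteoglycan versican, which rose by 0.33 ± 0.05 (limma adjusted p = 0.0077). Sox9 (0.39 ± 0.07, adjusted p = 0.014) and Snai2 (0.52 ± 0.12, adjusted p = 0.036), transcription factor genes of cushion mesenchyme, rose as well, Sox9 losing its call without Yap KO replicate 2 and Snai2 without any array but Yap HET replicate 2 or Yap KO replicate 1. The homeobox gene Msx1 (-0.16 ± 0.06, limma adjusted p = 0.11) and Snai1, a repressor gene of the Snail family (-0.18 ± 0.07, adjusted p = 0.13), had all Yap KO arrays below the Yap HET arrays, and Lox, which encodes lysyl oxidase, stood at -0.36 ± 0.17 (adjusted p = 0.22). All these genes were above the filter level, and what they contribute to the receptor values was not tested.

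For pericytes and smooth muscle, where Pdgfrb is the usual label, the marker sums were 7013 to 7175 in Yap HET and 6862 to 7247 in Yap KO cells, with 1 of 8 higher, 0 lower and a median of -0.03, and 2 higher and 1 lower before adjustment. Most of that sum is Mcam, an adhesion molecule gene, and Abcc9, a channel subunit gene, with Yap HET means of 3264 and 2113. The sum therefore says little about the dimmer markers of the list. Whether Mcam and Abcc9 report mural cells among these sorted cells was not tested. The channel gene Kcnj8 had a difference of -0.37 ± 0.11 (limma adjusted p = 0.076) with no overlap, Notch3 0.23 ± 0.09 (adjusted p = 0.15) and Rgs5 0.32 ± 0.23 (adjusted p = 0.40). Cspg4, the proteoglycan NG2, rose by 0.34 ± 0.07 (limma adjusted p = 0.020), a call that needed every array but Yap HET replicate 2 and Yap KO replicate 3. Epicardial markers had a median of -0.30, with 0 of 9 past the limma threshold and at an unadjusted p under 0.05 4 lower and 0 higher, and their sums were 4046 to 4869 in Yap HET and 2832 to 4047 in Yap KO cells. Upk3b, a uroplakin of mesothelium, had a difference of -0.68 ± 0.19 (limma adjusted p = 0.061) and was past the threshold without Yap KO replicate 3.

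For Kit, the pigment and granule genes of its usual cells were dim, while some transcription factors of those cells were not. Of 9 neural crest and melanocyte markers with a value used here, 6 were under the filter level on average, Dct, Tyr, Tyrp1, Pmel, Mlana and Foxd3, and the list summed to 2101 to 2217 in Yap HET and 2094 to 2164 in Yap KO cells. The other 3 were above it: the neural crest factor gene Sox10 read 142 to 180 in Yap HET and 156 to 168 in Yap KO cells, Mitf, which is not restricted to melanocytes, 1336 to 1462 and 1273 to 1340, and Erbb3 252 to 278 and 289 to 307. Of the mast cell and blood progenitor markers, Cpa3, Ms4a2, Fcer1a and Myb were under the filter level, the other 6 were above it, and the 10 genes summed to 1118 to 1162 in Yap HET and 1090 to 1232 in Yap KO cells. In these lists 0 genes passed the limma threshold, with 2 genes each way at an unadjusted p under 0.05. What such cells contribute to the Kit value was not tested. Erbb3 (0.20 ± 0.06, limma adjusted p = 0.071) and Runx1 (-0.32 ± 0.08, adjusted p = 0.054) had the smallest p-values, and each passed in 1 of the 6 fits that left out an array, Erbb3 when Yap HET replicate 2 was dropped and Runx1 when replicate 1 was.

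Endothelial and endocardial markers, which matter for Kdr and Pdgfb, went both ways. Of 10 tested, 1 rose and 1 fell, with 3 higher and 1 lower before adjustment. The median was 0.11, and the sums overlapped at 1744 to 1878 in Yap HET and 1798 to 1936 in Yap KO cells. Nfatc1, an endocardial transcription factor gene, rose by 0.31 ± 0.08 (limma adjusted p = 0.044) and Npr3, a natriuretic peptide receptor gene, fell by 0.34 ± 0.06 (adjusted p = 0.012). Nfatc1 kept its call only without Yap KO replicate 1, and Npr3 lost its call only when Yap HET replicate 1 was dropped. Emcn (0.40 ± 0.12, limma adjusted p = 0.069) and Cdh5 (0.36 ± 0.11, adjusted p = 0.076) had higher means without passing. Each of these passed in 1 of the 6 fits that left out an array. Of 8 genes of the second heart field, the progenitor pool in which Pdgfra is active, Osr1 rose (0.34 ± 0.06, limma adjusted p = 0.012, lost when Yap HET replicate 1 was dropped) and 0 fell, the median was 0.01 and the sums were 1887 to 2011 and 2016 to 2145. Of 4 myeloid markers tested, Lyz2 rose (0.47 ± 0.11, limma adjusted p = 0.036, past it in 1 of the 6 fits that left out an array), the median was -0.04, and the sums overlapped at 1698 to 2011 and 1802 to 1990. Cd68, a lysosomal gene of macrophages, had a difference of -0.72 ± 0.20 (limma adjusted p = 0.063), with all Yap KO arrays below the Yap HET arrays, and passed when Yap KO replicate 1 was dropped. Among the cardiomyocyte markers Nppa, the natriuretic peptide gene, rose (0.19 ± 0.05, adjusted p = 0.049), a call lost whichever array was left out, and 0 of 12 fell. Of the red cell markers 0 of 4 passed the limma threshold, with 1 higher and 0 lower before adjustment, and the globin gene Hbb-y had the smallest p (2.89 ± 1.14, adjusted p = 0.145). Hbb-y read 232, 27.1 and 19.8 in Yap HET and 1295, 450 and 86.3 in Yap KO cells. The groups overlapped, and Yap HET replicates 2 and 3 were under the filter level.

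**Figure D5:**
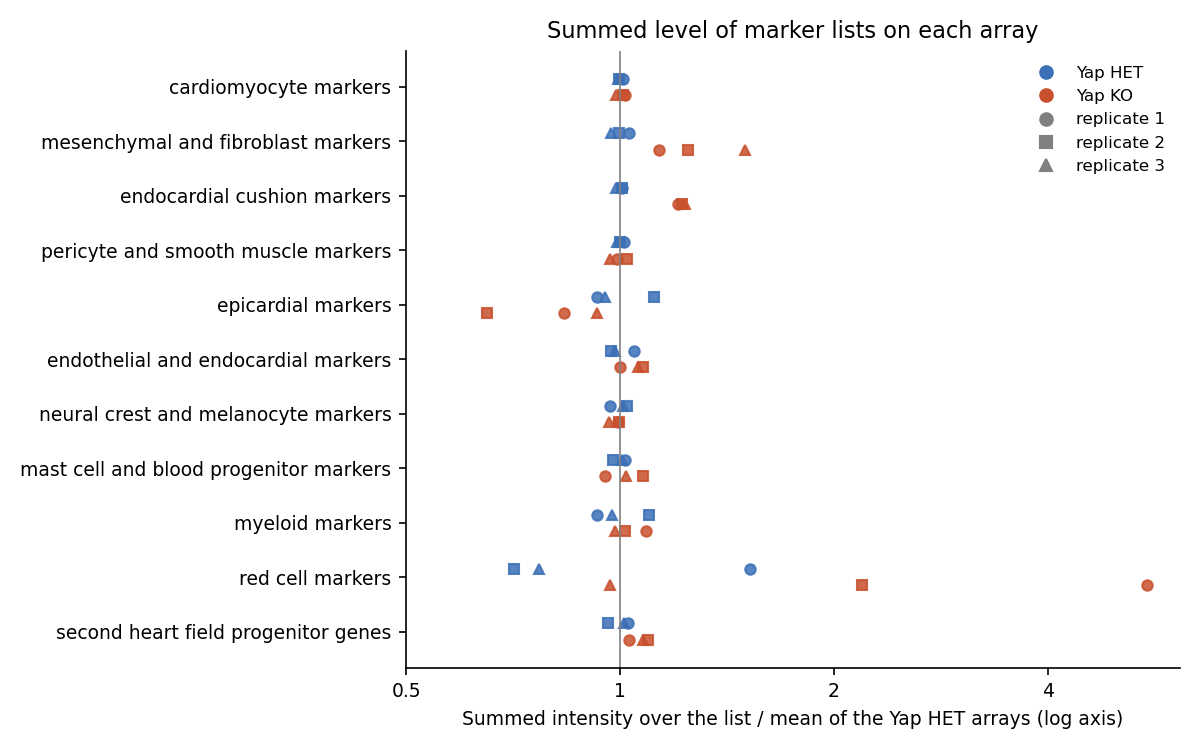
Summed intensity over each marker list on each array, divided by the mean of the Yap HET arrays (log axis). The Yap KO arrays lie to the right of all Yap HET arrays for the mesenchymal and cushion lists, and the widest spread is that of the red cell list. For the second heart field list they do so only barely, with Yap KO replicate 1 at 1.028 and Yap HET replicate 1 at 1.025.

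The genes whose pattern over the 6 arrays was most like each receptor were found from the root mean square distance between log2 values centred on each gene's mean, a description that uses the same contrast. For Pdgfra these were Gpr183, an oxysterol receptor gene, at 0.049, the transcription factor gene Ebf1 at 0.12, Nrgn, which encodes neurogranin, at 0.14, Kdr at 0.14 and Fabp7, a fatty acid binding protein gene whose Yap HET mean of 76.4 is under the filter level, at 0.15. Pdgfrb itself was the 7th nearest of the genes tested, at 0.15, and Kit the 102nd, at 0.26. For Pdgfrb the nearest were Ltbp4, a binding protein gene of latent TGF-beta, at 0.041, the transporter gene Abcd2 at 0.055, Vav3 at 0.067, Cdo1, a cysteine dioxygenase gene, at 0.068 and the gelatinase gene Mmp2 at 0.070. Kit lay nearest to Tbx3, a T-box factor gene of the conduction system, at 0.063, the transferrin gene Trf at 0.070, Pappa, a metalloproteinase gene, at 0.074, Gabrb2, a neurotransmitter receptor subunit gene, at 0.084 and the synaptic gene Rimbp2 at 0.089. The ligand genes were farther from Pdgfra, with Pdgfc at 0.42, Kitl at 0.42, Pdgfa at 0.51 and Pdgfd at 0.58. From Kit the order was another, with Pdgfrb at 0.19, Pdgfc at 0.21 and Kitl at 0.23 all nearer than Pdgfra at 0.26.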

How the data were processed

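The deposited table gave an intensity for each of 35556 probe sets on 6 arrays, linear and between 2e-05 and 15701. Per the submitters' processing notes the authors used RMA, with no version named, and the intensity scale was not log2, so log2 was taken here. Array number limits the precision. A gene was represented by its probe set with a single symbol and the highest mean log2 value, with symbols updated through Entrez identifiers in the RefSeq table of GRCm38.p6 (21698 of 21789 probe sets matched). Genes whose mean lay below the 40th percentile, an intensity of 85.7, were left out. The other 13632 were tested together by limma 3.58.1 (R 4.3.3; lmFit, then eBayes), group being the only term, with Benjamini-Hochberg adjustment and a threshold of 0.05. The fit was tested on simulated data. Fold changes of genes near the filter level may be understated. P-values and SEs measure the spread between these arrays, with each gene's variance moderated by limma toward that of all genes in the fit. The members and lists were chosen with earlier results of these data known. Named were all members, Yap1, each pathway gene past the threshold with up to 2 others of smallest p, up to 3 markers a list, and the 5 nearest genes to each receptor, predicted genes skipped. Mitf, Sox10, Msx1, Snai1, Lox, Mcam, Abcc9, Kcnj8, Notch3, Rgs5, Cd68, Emcn, Cdh5, Col3a1, Dcn and Thy1 were named after their values were seen. Alternatives were other filters, the mean of probe sets, a pseudocount of 16, quantile normalization, cyclic loess, a trended robust prior, a replicate block and each array left out.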

Additional observations from a re-analysis of the deposited data

How the results depend on the processing

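Of the alternatives, only the pseudocount, the normalizations and leaving out an array could change the log2 differences of the 8 genes. The filters, the mean of probe sets, the trended robust prior and the replicate block leave them unchanged by design. Leaving out an array cannot move a difference by as much as the pooled SD within groups, so those fits are no test of it. Under the pseudocount, quantile normalization and cyclic loess, each difference with a value moved by less than that SD. Pdgfb was tested only without a filter, and Kit and Kitl were too dim for the filter at the 60th percentile. Counts of genes called higher and lower, 704 and 649, became 271 and 237 with no filter, 1189 and 1057 with a trended robust prior, and 395 and 303 with the replicate block. With an array left out they ranged from 214 to 783 and from 206 to 597. In the pathway lists, the 8 rises and 3 falls became 3 and 1 with no filter, 13 and 5 with a trended robust prior, and 4 and 1 with the replicate block. The falls became 6 with the stricter filter and 5 with quantile normalization. With an array left out, rises ranged from 2 to 9 and falls from 1 to 4. The cause of these shifts was not tested. The mean of probe sets was run; testing each other probe set of a member was not, since each member had 1. Deviations of same-numbered arrays correlated at -0.08, -0.17 and 0.12, inside the range of the differently numbered ones. That range ran from -0.23 (Yap HET replicate 3 with Yap KO replicate 1) to 0.28 (Yap HET replicate 2 with Yap KO replicate 1). With 3 arrays in a group, whether the numbers pair the samples cannot be told from these values.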
